A study of Mus musculus with 64 samples.

Results

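The 8 genes Umod, Slc12a1, Cldn10, Cldn16, Cldn19, Kcnj1, Ptger3 and Nos1, known from the thick ascending limb of the kidney tubule, were followed through 64 RNA-seq libraries of mouse early distal convoluted tubule (DCT). They were taken by name from a table of 54331 genes, each matched 1 row, and all 8 passed the filter on low counts. The question was whether Umod follows Slc12a1 and the other genes of that segment from library to library. The tubules were microdissected from kidneys of male and female mice, in 16 groups of 4 libraries. A group is 1 sex, 1 diet and 1 time: a control diet or a diet containing furosemide, a loop diuretic that blocks the product of Slc12a1, for 12, 24, 48 or 96 h, with control-fed mice of its own at each time. All groups carried the transgene of the line C57BL/6-Tg (Pvalb-tdTomato)15Gfng/J, in which cells that express parvalbumin are marked red. The labels give no age and do not say that the 4 libraries of a group came from separate mice, so a p-value here weighs a difference against the spread of libraries only, and that spread may be technical.

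The thick ascending limb lies directly upstream of the DCT and takes up sodium, potassium and chloride through NKCC2, the product of Slc12a1. Potassium returns to the lumen through the channel ROMK (Kcnj1), and the claudins of the tight junctions (Cldn10, Cldn16, Cldn19) let sodium, calcium and magnesium pass between the cells. Its cells secrete uromodulin (Umod), the most abundant protein of normal urine. Ptger3 encodes a receptor for prostaglandin E2 found in this segment, and Nos1, neuronal nitric oxide synthase, marks the macula densa, the plaque of cells at its end. Kcnj1 is also expressed further downstream, and Umod has been described at a lower level in the early DCT. The early DCT is defined by Slc12a3, the thiazide-sensitive cotransporter NCC, and by parvalbumin (Pvalb).

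The upstream sequences of Umod, Slc12a1, Cldn16 and Kcnj1 are shown because these genes formed the pairs that moved together and those that did not. Each run is the 250 bases before the RefSeq start site (build GRCm38.p6), 5′ to 3′ on the gene's strand, with the searched motif GTTAAT in capitals where it occurs. They lie at chr7:119479263-119479512 (minus strand) for Umod, chr2:125152350-125152599 (plus strand) for Slc12a1, chr16:26462885-26463134 (plus strand) for Cldn16 and chr9:32393735-32393984 (plus strand) for Kcnj1. For Umod, Slc12a1 and Kcnj1 this start lies inside the gene as annotated by GENCODE. The annotated gene thus covers part of the Umod and Slc12a1 runs and all of the Kcnj1 run.
Umod: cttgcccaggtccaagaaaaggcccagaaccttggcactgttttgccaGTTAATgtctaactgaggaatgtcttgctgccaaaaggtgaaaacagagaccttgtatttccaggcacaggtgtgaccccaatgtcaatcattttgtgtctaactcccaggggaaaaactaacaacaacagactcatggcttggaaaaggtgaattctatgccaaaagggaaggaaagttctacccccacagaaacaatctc
Slc12a1: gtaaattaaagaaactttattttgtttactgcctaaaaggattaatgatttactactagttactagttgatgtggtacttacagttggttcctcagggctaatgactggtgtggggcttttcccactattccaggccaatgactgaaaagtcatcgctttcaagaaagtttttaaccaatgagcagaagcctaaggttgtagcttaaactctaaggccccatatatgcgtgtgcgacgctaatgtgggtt
Cldn16: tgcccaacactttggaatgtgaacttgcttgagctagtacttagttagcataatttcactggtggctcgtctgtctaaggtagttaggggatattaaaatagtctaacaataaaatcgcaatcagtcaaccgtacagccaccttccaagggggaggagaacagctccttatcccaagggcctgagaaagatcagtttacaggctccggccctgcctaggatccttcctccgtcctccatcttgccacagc
Kcnj1: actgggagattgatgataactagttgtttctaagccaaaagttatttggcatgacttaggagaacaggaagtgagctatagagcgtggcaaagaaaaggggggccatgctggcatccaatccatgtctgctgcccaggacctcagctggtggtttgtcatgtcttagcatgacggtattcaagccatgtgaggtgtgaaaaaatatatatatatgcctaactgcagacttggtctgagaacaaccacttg
Among these genes the Umod run alone holds GTTAAT on either strand, 202 bases before the start site. Of the 10 windows of the 8 genes (250 bases before to 50 after a start), the other with this motif is the first Cldn10 window, on the opposite strand 15 bases before the start, and 7.1% of 32851 windows of all genes hold it. The POU octamer ATGCAAAT (1.74% of all windows) and the ESRR motif TCAAGGTCA (0.423%) were searched on both strands and were in none of the 10 windows. A match describes letters in this window and nothing about binding.

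Total counts were 12.71 to 41.07 M per library (median 20.45 M), and the 16 libraries of 96 h were deeper (median 32.4 M) than the 48 others (median 19.15 M). The early DCT markers were present in every library: Slc12a3 at 2789 to 16690 CPM (the usual count rate, with library sizes scaled by TMM) and Pvalb at 214.6 to 2537 CPM. Summed over each list, 9 macula densa markers, Nos1 among them, reached 31.1 to 75.72 CPM and 8 proximal tubule markers 11.84 to 1324 CPM. In 3 libraries the ranks of genes correlated less with the other libraries of their group than in the rest: female control 24 h replicate 3 (median Spearman rho 0.448), female control 48 h replicate 4 (0.703) and male furosemide 12 h replicate 4 (0.722), against 0.811 and above. Many of the results below are given with and without them.

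Per kilobase of merged exons, the scale on which genes can be compared, Umod stood far above the other 7 genes. Its median was 1664 CPM per kb, against 586 for Slc12a3, 221 for Kcnj1 and 20.6 for Slc12a1. Umod exceeded Slc12a3 per kb in 64 of 64 libraries, Slc12a3 exceeded Kcnj1 in 64, and Kcnj1 exceeded Slc12a1 in 64. The ratio of Umod to Slc12a1 per kb had a median of 82.6 and ran from 13.6 in female furosemide 96 h replicate 2 to 820 in female control 24 h replicate 1. Below Slc12a1 the order was less firm: Ptger3 (median 6.29 CPM per kb) was lower than Slc12a1 in 54 of 64 libraries, Cldn16 (4.86) lower than Ptger3 in 39, Cldn19 (2.06) lower than Cldn16 in 54, Cldn10 (0.836) lower than Cldn19 in 49 and Nos1 (0.608) lower than Cldn10 in 43. Over the length of the longest transcript in place of merged exons, Slc12a3 rose to a median of 1512 CPM per kb and Umod to 1751, so the gap between them depends on the length used. In tubules of a mixed make-up, fewer cells of a type and less RNA per cell cannot be told apart.

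Umod (ENSMUSG00000030963, chr7:119462711-119479282, minus strand) had 38914 or more counts in every library. In males on the control diet its 4 libraries held 8910, 4440, 5432 and 4720 CPM at 12 h, 4588, 8915, 5025 and 4830 at 24 h, 4771, 6858, 2758 and 5483 at 48 h, and 6461, 2451, 4521 and 3614 at 96 h. In males on furosemide they held 8909, 4155, 5658 and 8423 CPM at 12 h, 4301, 6700, 8111 and 6723 at 24 h, 7230, 4413, 5156 and 6456 at 48 h, and 4657, 6855, 4969 and 8536 at 96 h. The diets overlapped at each time in males. In control females the Umod values were 3733, 3891, 2909 and 3475 CPM at 12 h, 2919, 4225, 11690 and 2736 at 24 h, 5328, 3142, 4259 and 5851 at 48 h, and 1539, 5510, 2719 and 5480 at 96 h. In females on furosemide they were 2328, 2766, 4605 and 2183 CPM at 12 h, 2278, 2592, 5368 and 2803 at 24 h, 3435, 2530, 3265 and 2660 at 48 h, and 4964, 1523, 5716 and 3534 at 96 h. The diets overlapped in females too. The highest value, 11690 CPM, came from the library that correlated least with its group, and the lowest, 1523 CPM, from female furosemide 96 h replicate 2.

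The 16 group means of Umod ran from 6786 ± 2264 CPM (SD, n = 4) in male furosemide 12 h to 2971 ± 1117 CPM (SD, n = 4) in female furosemide 12 h. Ordered by mean, each group differed from the next by less than the SD of either, so no 2 neighbours in the order stood apart. The 4 male furosemide groups lay at 5814 CPM or above, and the 4 female furosemide groups at 3934 CPM or below.

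Slc12a1 (ENSMUSG00000027202, chr2:125152505-125230002, plus strand) was lower and far more variable. Its control male libraries held 531.3, 27.73, 195.6 and 12.15 CPM at 12 h, 38.35, 68.59, 101.4 and 73.05 at 24 h, 137.2, 218.2, 7.976 and 298.3 at 48 h, and 57.99, 168.1, 126.2 and 69.8 at 96 h. With furosemide the male values were 31.55, 143.7, 226 and 200.6 CPM at 12 h, 66.56, 103, 129.7 and 133.8 at 24 h, 105.5, 161.9, 129.5 and 101.4 at 48 h, and 321.8, 84.29, 136.6 and 156.6 at 96 h. Single libraries of 1 group thus differed by more than an order of magnitude, as in control males at 12 h and 48 h. Control females had Slc12a1 at 347.9, 295.8, 89.66 and 166 CPM at 12 h, 7.421, 45.59, 189.5 and 108.2 at 24 h, 115.8, 24.56, 252.1 and 88.81 at 48 h, and 78.48, 48.91, 210.2 and 139.1 at 96 h. With furosemide the female values were 248.7, 192.7, 307.2 and 23.53 CPM at 12 h, 122, 99.28, 35.55 and 9.011 at 24 h, 331.3, 37.29, 105.2 and 53.06 at 48 h, and 425.7, 233.9, 219.9 and 93.85 at 96 h. The group means ran from 243.3 ± 136.9 CPM (SD, n = 4) in female furosemide 96 h to 66.46 ± 52.97 CPM (SD, n = 4) in female furosemide 24 h, and neighbours in this order again differed by less than the SD of either.

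**Figure D1:**
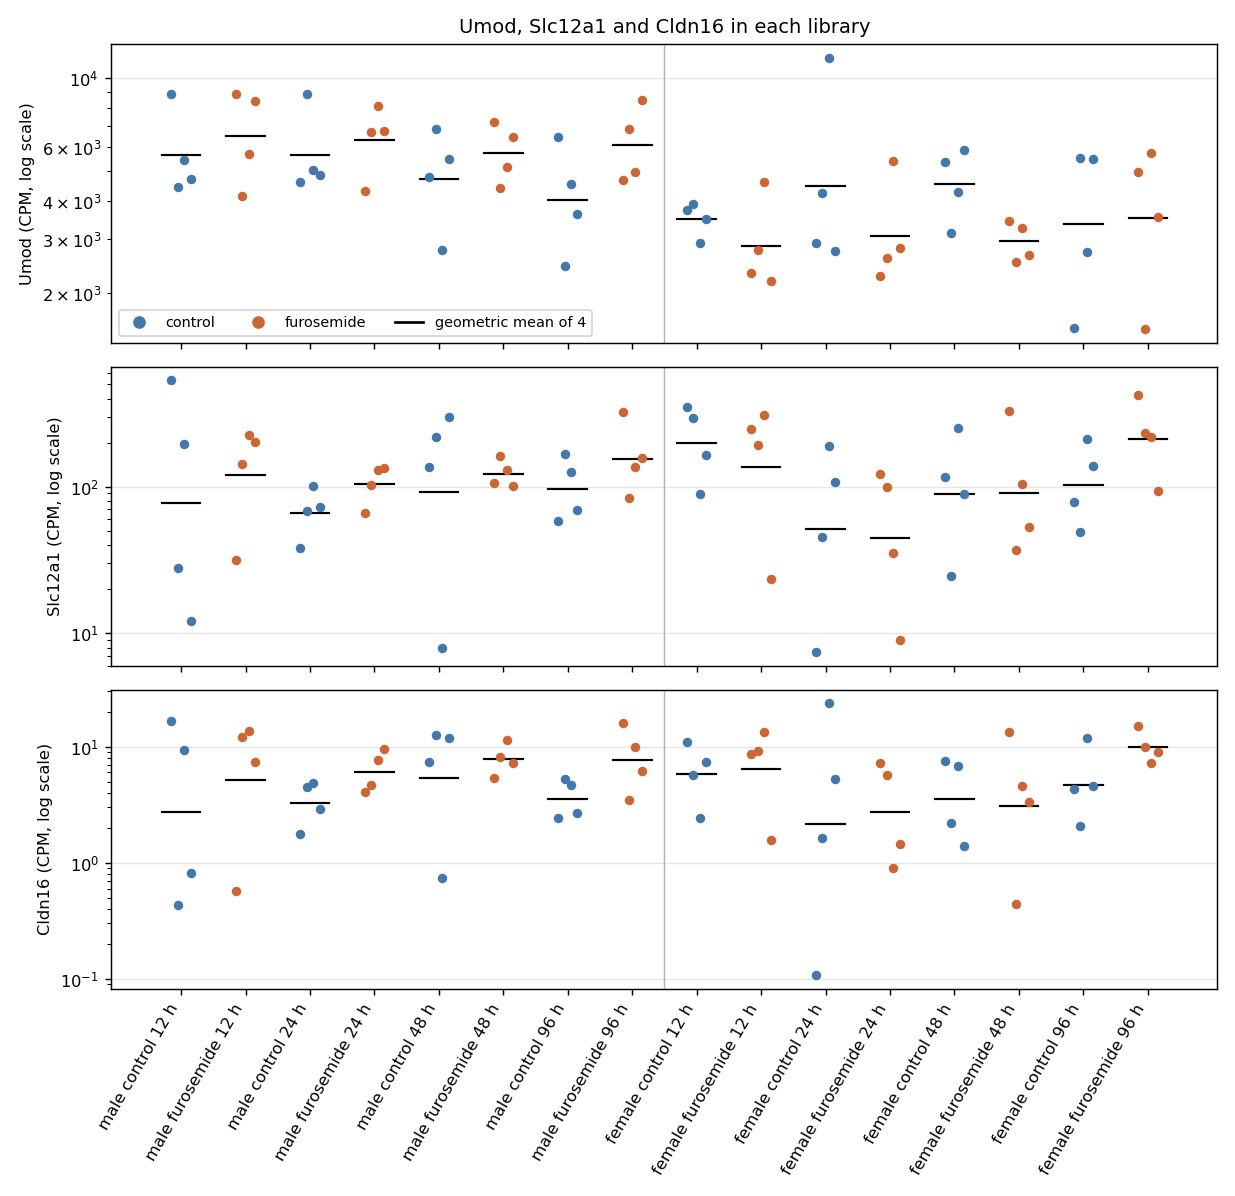
Umod, Slc12a1 and Cldn16 in CPM (log axes) in each of 64 libraries, by group, with control libraries in blue, furosemide libraries in orange and a bar at the geometric mean of each 4. Umod ranged from 1523 to 11690 CPM, Slc12a1 from 7.421 to 531.3 CPM and Cldn16 from 0.108 to 23.6 CPM, and the libraries of 1 group were spread more widely in Slc12a1 and Cldn16 than in Umod.

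The spread within groups divided the members. As a within-group SD of log2 CPM it was 0.56 for Umod, 0.40 for Kcnj1 and 0.55 for Nos1, against a median of 0.51 over 11131 genes with a mean of at least 3 log2 CPM. It was 1.41 for Slc12a1, 1.49 for Cldn16 and 1.32 for Cldn10, larger than that of 99.7%, 99.8% and 99.6% of those genes, and 0.84 for Ptger3 and 0.77 for Cldn19. Slc12a3 had 0.40 and Pvalb 0.56. Slc12a1 had 138 or more counts in each library, while Cldn16 went down to 2 counts and Cldn10 to 4 in a library, so the lowest values of both claudins are imprecise.

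The claudin Cldn16 (ENSMUSG00000038148, chr16:26463135-26482765), with Cldn19 the pore for calcium and magnesium in this segment, moved with Slc12a1. In control males at 12 h, where Slc12a1 was 531.3, 27.73, 195.6 and 12.15 CPM, Cldn16 in the same 4 libraries was 16.61, 0.4363, 9.442 and 0.8175 CPM. In control females at 24 h, with Slc12a1 at 7.421, 45.59, 189.5 and 108.2 CPM, Cldn16 was 0.1076, 1.625, 23.58 and 5.229 CPM. The library of 23.58 CPM, replicate 3, is 1 of the libraries of low similarity. The order of the libraries was the same in both genes in the female group and differed in the lowest 2 libraries of the male group. Over 64 libraries, with group means removed, Cldn16 and Slc12a1 lay on the same side of their group means in 56, with Pearson r = 0.888 and Spearman rho = 0.909 (permutation tests with 100000 shuffles within groups, two-sided, p = 1e-05 for each, the smallest they can give, adjusted p = 8.8e-05 over 44 pairs). Without the 2 libraries farthest from the median of Slc12a1, r was 0.867, and without the 3 libraries of low similarity r was 0.899. Within 12, 24, 48 and 96 h it was 0.924, 0.898, 0.859 and 0.846.

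Cldn19 (ENSMUSG00000066058, chr4:119255414-119262438) followed Slc12a1 less closely. It ranged from 2.982 CPM in female furosemide 24 h replicate 4 to 66.45 CPM in female control 24 h replicate 3, a library of low similarity. Its r with Slc12a1 was 0.71 (rho 0.684, permutation p = 1e-05 for each, adjusted p = 8.8e-05, r = 0.653 without the 2 farthest libraries), and 0.767 without the 3 libraries of low similarity. Within the 4 times r was 0.802, 0.708, 0.764 and 0.527. Cldn16 and Cldn19, whose products act together, had r = 0.704 (rho 0.644, permutation p = 2e-05 for r and 1e-05 for rho, adjusted p = 0.000126 for r, r = 0.675 without the 2 farthest), and 0.749, 0.784, 0.697 and 0.28 within the times.

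Cldn10 (ENSMUSG00000022132, chr14:118787908-118875489), which encodes the sodium pore of the junctions, was low at a median of 2.17 CPM and ranged from 0.1773 to 49.56 CPM. It had r = 0.439 with Slc12a1 (permutation p = 0.00803, adjusted p = 0.0321, r = 0.435 without the 2 farthest), while its rho of 0.338 missed the threshold after adjustment (permutation p = 0.0231, adjusted p = 0.078). Within the times r was 0.691, 0.201, 0.497 and −0.0763, so the relation was not seen at 96 h, and it missed the threshold on CPM without TMM scaling (r = 0.408, adjusted p = 0.101 by the permutation test). The call also ended without any 1 of 5 libraries: male control 12 h replicate 1, male control 48 h replicate 3, female control 24 h replicate 1, female control 48 h replicate 2 or male furosemide 12 h replicate 1 (r of 0.345 to 0.447, adjusted p of 0.06 to 0.0696 by the permutation test).

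Ptger3 (ENSMUSG00000040016, chr3:157566892-157645888) ranged from 11.4 to 300.4 CPM, and its highest values, 300.4 and 212.1 CPM, both came from libraries of low similarity. It had r = 0.409 with Slc12a1 (rho 0.434, permutation p = 0.00434 and 0.00228, adjusted p = 0.0191 and 0.0111, r = 0.355 without the 2 farthest), and 0.616, 0.428, 0.242 and 0.466 within the times. Without the 3 libraries of low similarity r was 0.466, and without TMM scaling it was 0.301 (adjusted p = 0.217 by the permutation test). The call ended without male control 48 h replicate 3 (r = 0.373, adjusted p = 0.0634) or female control 24 h replicate 1 (r = 0.378, adjusted p = 0.051). Nos1 (ENSMUSG00000029361, chr5:117781032-117958840), between 1.489 and 17.66 CPM, had r = −0.107 with Slc12a1 (rho −0.0851, permutation p = 0.569 and 0.576, adjusted p = 0.583 and 0.666, r = −0.11 without the 2 farthest). Its within-time values were 0.0957, −0.276, −0.25 and 0.0324.

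Umod did not pass the test of a relation with Slc12a1. Its deviations and those of Slc12a1 lay on the same side of the group means in 37 of 64 libraries, with r = 0.296 and rho = 0.207 (permutation tests, two-sided, p = 0.0503 and p = 0.152, adjusted p = 0.136 and 0.352). Without the 2 libraries farthest from the median of Slc12a1, r was 0.205, without the 3 libraries of low similarity 0.223, and without TMM scaling 0.111. Within 12, 24 and 48 h r was 0.449, 0.319 and 0.716, and within 96 h it was −0.196, none of them past the threshold after adjustment (the smallest adjusted p by the permutation test was 0.0847, at 48 h). In the control males at 12 h, Umod was 4720 CPM in the library with 12.15 CPM of Slc12a1 and 5432 CPM in the library with 195.6 CPM.

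With the other members of the segment, Umod had r = 0.351 for Cldn19, 0.315 for Ptger3, 0.217 for Cldn16, 0.0754 for Cldn10 and −0.192 for Nos1, and none passed after adjustment (permutation tests, adjusted p of 0.136, 0.0516, 0.29, 0.592 and 0.41). On values not centred on groups, which keep the differences between groups, the Cldn19 value passed (r = 0.406, adjusted p = 0.00495 by the permutation test). Spearman's rho for the same pairs was 0.191, 0.335, 0.101, 0.0762 and −0.0245 (permutation p = 0.179, 0.0146, 0.489, 0.595 and 0.868), and r without the 2 farthest libraries was 0.215 for Cldn19, 0.275 for Ptger3, 0.113 for Cldn10 and 0.0542 for Nos1. Without the 3 libraries of low similarity r was 0.148 for Cldn19, 0.221 for Ptger3 and 0.0934 for Cldn16. The Ptger3 value passed in 25 of the 64 sets without 1 library (adjusted p down to 0.00836 by the permutation test, without female furosemide 24 h replicate 3). The relation of Umod with Cldn10 turned with time: r was 0.354, 0.503 and 0.53 at 12, 24 and 48 h and −0.755 at 96 h, where it passed the threshold (adjusted p = 0.0246 by the permutation test).

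With Kcnj1 and with the early DCT genes Umod did pass. The test weighs r against no relation, while the median r of 11130 genes with Umod was 0.346. The share of all genes that would pass was not computed, so a pass is not particular to these genes. Kcnj1 (ENSMUSG00000041248, chr9:32372493-32399197), between 270 and 1497 CPM, had r = 0.668 with Umod and rho = 0.625 (permutation tests, p = 2e-05 for each, adjusted p = 0.000126, r = 0.645 without the 2 farthest), with 0.142, 0.501, 0.843 and 0.863 within 12, 24, 48 and 96 h. Pvalb had r = 0.688 with Umod and rho = 0.696 (permutation p = 1e-05 for each, adjusted p = 8.8e-05, r = 0.609 without the 2 farthest), lay on the same side of the group mean in 51 of 64 libraries, and had 0.316, 0.801, 0.81 and 0.811 within the times. Slc12a3 had r = 0.545 with Umod and rho = 0.542 (permutation p = 8e-05 and 0.00024, adjusted p = 0.00044 and 0.00132, r = 0.55 without the 2 farthest), with −0.0023 at 12 h and 0.728, 0.697 and 0.765 at the later times. These 3 values depended on the scaling: on CPM without TMM they were 0.455 for Kcnj1 (adjusted p = 0.088 by the permutation test), 0.47 for Pvalb (adjusted p = 0.00352) and 0.166 for Slc12a3 (adjusted p = 0.611). On values not centred on groups the Kcnj1 value fell short of the threshold (r = 0.258, adjusted p = 0.0856 by the permutation test), while Pvalb (0.506, adjusted p = 0.000733) and Slc12a3 (0.312, adjusted p = 0.0402) passed. Within single times, of 16 libraries each, none of the 3 passed at 12 h or 24 h, and all passed at 96 h. They were 0.704 (Kcnj1), 0.587 (Pvalb) and 0.522 (Slc12a3) when the 3 libraries of low similarity were left out, all past the threshold.

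Kcnj1 itself went with Slc12a3, with r = 0.752 and rho = 0.838 (permutation p = 1e-05 for each, adjusted p = 8.8e-05, r = 0.811 without the 2 farthest), on the same side of the group mean in 54 of 64 libraries, and 0.703, 0.811, 0.732 and 0.915 within the times. Its r with Slc12a1 was 0.233 (rho 0.117, permutation p = 0.123 and 0.415, adjusted p = 0.226 and 0.588, r = 0.103 without the 2 farthest), and it turned sign without TMM scaling (−0.0132) and at 24 h (−0.0421) and 96 h (−0.139). Slc12a1 and Slc12a3, the cotransporters of the neighbouring segments, had r = 0.267 (rho 0.129, permutation p = 0.113 and 0.403, adjusted p = 0.226 and 0.588, r = 0.253 without the 2 farthest), also with a turned sign without TMM scaling (−0.0204) and at 96 h (−0.289).

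**Figure D2:**
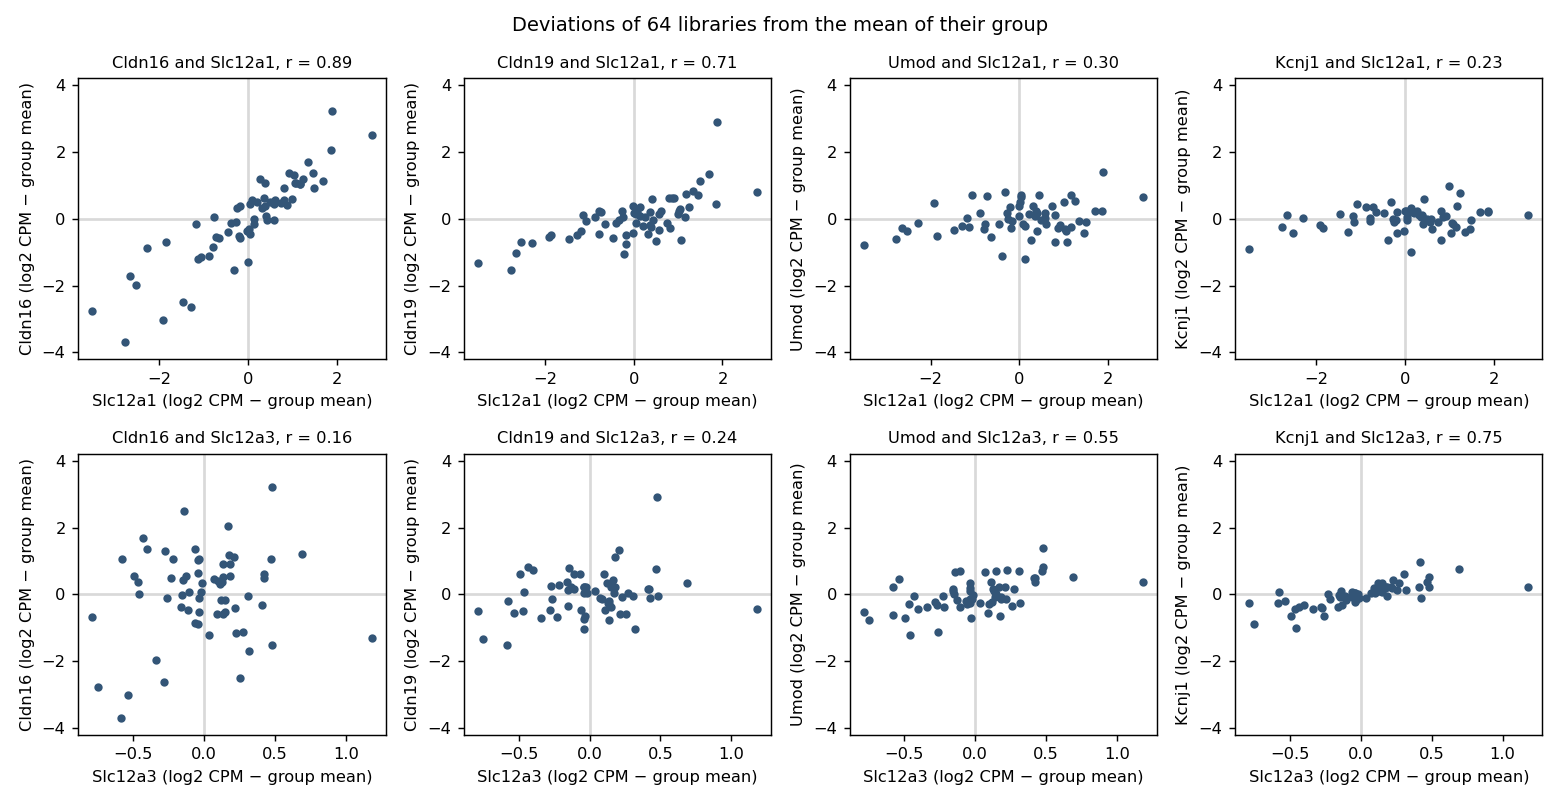
Each point is 1 of 64 libraries, plotted as its deviation from its group's mean log2 CPM, with Slc12a1 (upper row) or Slc12a3 (lower row) on the x axis and Cldn16, Cldn19, Umod or Kcnj1 on the y axis. Cldn16 rises steeply with Slc12a1 (r = 0.888), Umod has a wide scatter around a shallow slope (r = 0.296), and Kcnj1 rises with Slc12a3 (r = 0.752).

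**Figure D3:**
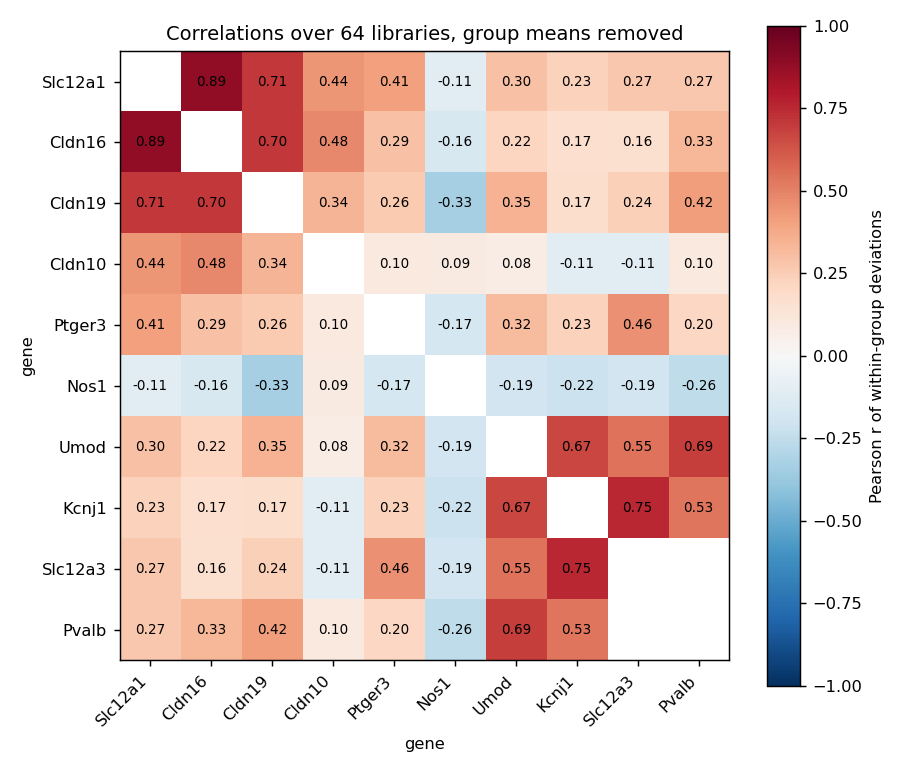
Pearson r between the within-group deviations of the 8 members, Slc12a3 and Pvalb over 64 libraries, in red where positive and blue where negative, and blank on the diagonal and for the Slc12a3 and Pvalb pair, which was not in the family. Slc12a1, Cldn16 and Cldn19 form 1 block (r of 0.704 to 0.888), and Umod and Kcnj1 form another with Slc12a3 and Pvalb (r of 0.534 to 0.752).

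Slopes put a size on these relations. With the log2 CPM of Slc12a1 as a covariate in an edgeR quasi-likelihood fit over all 41506 other genes, 26 genes were called at an adjusted p under 0.05 (0.0626% of those tested), 25 of them with a positive slope, and 2 of the 7 other members were among them. Cldn16 rose by 0.92 log2 units per log2 unit of Slc12a1 (SE 0.08, adjusted p = 3.22e-13) and Cldn19 by 0.42 (SE 0.06, adjusted p = 1.9e-05). Cldn10 had a slope of 0.46 (SE 0.12, adjusted p = 0.0885), called without male control 96 h replicate 2 (adjusted p = 0.044) or female control 24 h replicate 4 (adjusted p = 0.0279). In the same fit the slopes of the others were not called. Ptger3 had 0.23 (SE 0.08, unadjusted p = 0.00644, adjusted p = 0.114 in the edgeR fit) and Umod 0.13 (SE 0.06, unadjusted p = 0.0266, adjusted p = 0.213). Kcnj1 had 0.07 (SE 0.04, unadjusted p = 0.133, adjusted p = 0.427) and Nos1 −0.01 (SE 0.06, unadjusted p = 0.9, adjusted p = 0.965). The count of called genes was not stable: it was 2268 by DESeq2 and 1448 to 2306 without any 1 of 3 libraries (male control 12 h replicate 4, male control 96 h replicate 2, female control 24 h replicate 4), and 17.7% of genes had an unadjusted p under 0.05. The calls of Cldn16 and Cldn19 and the missed call of Umod held in all 64 fits without 1 library and by DESeq2, with the slope of Umod between 0.09 and 0.15 in the leave-out fits.

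Whether Umod and the claudins differed in their slope on Slc12a1 was tested on the log ratio of each gene to Umod. The test was added once the correlations were known and uses the same libraries, so it is no separate evidence. A slope also grows with a gene's spread within groups, an SD of 1.49 for Cldn16 and 0.56 for Umod. The ratio therefore cannot tell a weaker relation from a smaller spread. The ratio of Cldn16 to Umod rose with Slc12a1 (r = 0.786, rho = 0.808, permutation p = 1e-05 for each, adjusted p = 5e-05 over 5 ratios, r = 0.758 without the 2 farthest), by 0.82 log2 units per unit. The ratio of Cldn19 to Umod rose as well (r = 0.49, rho = 0.492, permutation p = 0.00051 and 0.00029, adjusted p = 0.00127, r = 0.462 without the 2 farthest), by 0.27 per unit. For Cldn10, Ptger3 and Kcnj1 the ratio to Umod gave r = 0.297, 0.211 and −0.174 (rho 0.254, 0.233 and −0.108), with adjusted p of 0.0842, 0.152 and 0.267 by the permutation test, so no difference from Umod was shown for these.

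With both cotransporter genes as covariates in 1 fit, also added afterwards, the slopes were as follows. Beside Slc12a3, the slope on Slc12a1 was 0.94 for Cldn16 (SE 0.08, adjusted p = 2.81e-13) and 0.41 for Cldn19 (SE 0.06, adjusted p = 5.06e-05), both among the 0.0482% of genes called, and 0.07 for Umod (SE 0.05, adjusted p = 0.722) and 0.01 for Kcnj1 (SE 0.03, adjusted p = 0.96). Beside Slc12a1, the slope on Slc12a3 was 0.69 for Umod (SE 0.18, adjusted p = 0.00222), 0.75 for Kcnj1 (SE 0.12, adjusted p = 1.08e-06), 0.97 for Ptger3 (SE 0.25, adjusted p = 0.00244) and 0.72 for Pvalb (SE 0.17, adjusted p = 0.000963), in a fit that called 29% of all genes. The 3 claudins were not called on that side: the slope was −0.29 for Cldn16 (SE 0.27, adjusted p = 0.446), 0.16 for Cldn19 (SE 0.22, adjusted p = 0.635) and −0.90 for Cldn10 (SE 0.41, adjusted p = 0.0907). Without the 3 libraries of low similarity the Umod slopes were 0.03 and 0.75, and the Ptger3 slope on Slc12a3 was 0.13 (SE 0.26, adjusted p = 0.803), so its call ended.

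**Figure D4:**
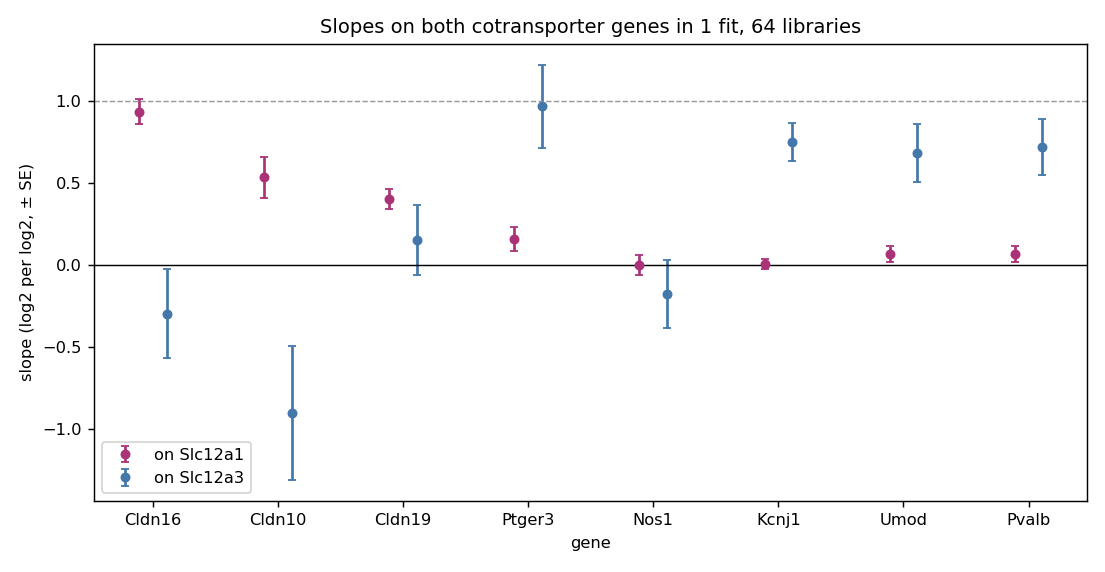
Slopes with standard errors of 7 members and Pvalb on Slc12a1 (magenta) and on Slc12a3 (blue), in log2 units per log2 unit, from 1 fit over 64 libraries, with a dashed line at a slope of 1. Cldn16 lies at 0.94 and Cldn19 at 0.41 on Slc12a1, while Umod, Kcnj1 and Pvalb lie near 0 on Slc12a1 and at 0.69 to 0.75 on Slc12a3.

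The genes most like each of them, by r of the within-group deviations over 64 libraries among genes with a mean of at least 3 log2 CPM, were different sets. For Umod they were Kng2 (r = 0.812), a kininogen gene, Ndrg1 (0.777), Oat (0.763), which encodes ornithine aminotransferase, Wfdc15b (0.752) and Rnf152 (0.751). For Slc12a1 they were Car15 (0.933) and Car4 (0.724), which encode carbonic anhydrases, Cldn19 (0.71), Eif3j1 (0.652) and Igfbp4 (0.607). Without the 3 libraries of low similarity the values for Umod, in the same order, were 0.769, 0.728, 0.694, 0.752 and 0.697. Those for Slc12a1 were 0.958, 0.753, 0.767, 0.642 and 0.619. In the order of 11130 genes for Umod, Pvalb stood at 65, Kcnj1 at 129, Slc12a3 at 1711, Cldn19 at 5498, Ptger3 at 6022 and Slc12a1 at 6267, and the median r of all genes with Umod was 0.346, above the 0.296 of Slc12a1. In the order for Slc12a1, Cldn19 stood at 3, Ptger3 at 1092, Umod at 3664 and Kcnj1 at 4889, with a median of 0.195 over all genes. Cldn16, Cldn10 and Nos1 were under the level minimum and have no place in these orders.

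A list of 21 other markers of the thick ascending limb was examined as well. In the slope fit on Slc12a1, 2 of 21 were called, both with a positive slope: Car15 (0.90, SE 0.06, adjusted p = 2.8e-18) and Enox1 (0.28, SE 0.06, adjusted p = 0.0359), and the list had a median slope of 0.16 against −0.03 over all genes. Some lists of other cells had a higher median, with none called. Intercalated cell markers had a median of 0.31 (6 of 6 positive, 4 with an unadjusted p under 0.05). Markers of late DCT, connecting tubule and principal cells had 0.18 (9 of 9 positive, 3 under 0.05). Podocyte markers had 0.20 (3 of 5 positive, 1 under 0.05). Medians were lower for immune (0.12), stroma (0.10), endothelium (0.09), early DCT (0.09), proximal tubule (0.03), macula densa (−0.01) and erythroid markers (−0.02). Among 11 genes of salt handling, with Kcnj1 and some of the same markers among them, Slc9a3, the sodium-proton exchanger NHE3, was the 1 called (0.44, SE 0.06, adjusted p = 6.51e-06). By r of the deviations, given as a description, 13 of the 21 markers went more with Slc12a3 than with Slc12a1. All 11 early DCT markers other than Slc12a3 did so. The share of all genes that did so was not computed, so neither count can be read as a trait of its list. In the fit with both covariates, 29% of all genes were called on Slc12a3 and 0.0482% on Slc12a1. A list of 5 partners and neighbours of Umod had a median r of 0.513 with it. Among them, named after their values were seen, Gp2, a paralogue of Umod, had 0.584, Hpn, whose protease product cleaves uromodulin, 0.513 and Pdilt, the neighbouring gene, 0.402.

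Umod differed between the sexes. Over all 16 groups its level was lower in females by 0.62 log2 units (SE 0.14, edgeR quasi-likelihood test, adjusted p = 0.0045), a contrast added once the levels by sex had been seen, in which 2.91% of genes were called. Female libraries ranged from 1523 to 11690 CPM with a median of 3350 and male libraries from 2451 to 8915 with a median of 5294, so the sexes overlapped. The female mean was the lower in 8 of 8 pairs of groups of 1 diet and time, and 25 of 32 female libraries lay under the male median. The difference was 0.57 to 0.71 log2 units in the 64 fits without 1 library, each with an adjusted p of 0.0158 or less. In the controls alone it was −0.28 (SE 0.20, adjusted p = 0.618), in a contrast that called 1.24% of genes and none of the members. The sexes did not differ past the threshold in the furosemide effect on Umod at any time (female minus male −0.45, −0.87, −0.87 and −0.51 log2 units at 12, 24, 48 and 96 h, adjusted p of 0.596 or more in edgeR).

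No other member was called between the sexes. Slc12a1 differed by 0.06 log2 units over all groups (SE 0.28, adjusted p = 1 in edgeR) and the female mean was lower in 2 of 8 pairs. Cldn19 was at −0.31 (SE 0.19, adjusted p = 0.514) and was called without female control 24 h replicate 3 (−0.57, adjusted p = 0.012 in edgeR). Kcnj1, whose female mean was lower in 0 of 8 pairs, was at 0.21 (SE 0.11, unadjusted p = 0.047, adjusted p = 0.362 in edgeR). Markers of other cells moved with sex. Of 8 proximal tubule markers, 6 had a negative sign and 2 were called lower in females (Kap by 2.79 log2 units and Slc22a6 by 1.06). Their summed levels were 11.84 to 294.2 CPM in females and 20.98 to 1324 CPM in males. All 5 immune markers had a negative sign and 3 were called (Cd74, Tyrobp and Lyz2), with 58.96 to 678.5 CPM against 67.63 to 1155 CPM. All 5 podocyte markers had a negative sign (median −0.72, all with an unadjusted p under 0.05, 1 called), with 30.87 to 141.6 CPM in females and 23.29 to 2858 CPM in males. So did all 5 stroma markers (median −0.68, 4 under 0.05, 1 called), with 16.53 to 327.3 CPM against 20.34 to 337.7 CPM. All 5 endothelium and all 6 intercalated cell markers were also negative and all 5 erythroid markers positive, with 0 called in each. No marker of these lists was at 0 in all libraries. Their part in the Umod difference was not tested.

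With all 64 libraries, furosemide changed none of the 8 genes past the threshold at any time, and Ptger3 was called when libraries of low similarity were left out. By edgeR, 0 of 8 members were called at 12 h (0% of 41507 genes called), 24 h (0.00964%), 48 h (0.00241%) and 96 h (0.0819%), and 2, 0, 1 and 2 had an unadjusted p under 0.05. DESeq2 called 0 of 8 at each time, with 2, 0, 2 and 2 at an unadjusted p under 0.05. Over all times 0 of 8 were called (0.588% of genes), by either tool, with 3 at an unadjusted p under 0.05. Within 1 sex, edgeR also called 0 of 8 at each time: in males (0.00241%, 0%, 0% and 0.012% of genes called at 12, 24, 48 and 96 h) with 2, 0, 0 and 0 at an unadjusted p under 0.05, and in females (0%, 0.272%, 0% and 0.00723%) with 0, 1, 0 and 1. The female value at 24 h was Cldn19 (−1.91, SE 0.55, unadjusted p = 0.000904, adjusted p = 0.084), which rested on the control library of 66.45 CPM: with both sexes together its 24 h change was −0.65, and 0.41 without that library.

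For Ptger3, the prostaglandin receptor gene, 1 library decided the call over all times. At 48 h its furosemide libraries held 40.86, 19.85, 37.54 and 61.24 CPM in males and 67.39, 163.5, 54.84 and 43.46 CPM in females, and its controls 17.21, 33.68, 11.89 and 37.45 CPM in males and 33.57, 14.07, 30.12 and 300.4 CPM in females. Each female furosemide library lay above 3 of the 4 female controls and below the library of 300.4 CPM, replicate 4. The change over all times was 0.46 log2 units (SE 0.20, adjusted p = 0.396 in edgeR) with all libraries, 0.69 without that library (adjusted p = 0.0256) and 0.63 without the 3 libraries of low similarity (adjusted p = 0.00782), in a fit that called 2518 genes against 244. At 48 h alone it was 0.24 (SE 0.40, adjusted p = 0.902 in edgeR) with all libraries. It was 1.18 without the 3 (adjusted p = 0.0399 in edgeR), in a fit that called 930 genes against 1. Leaving out 1 library at a time gave no call of Ptger3 at 48 h.

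The log2 change of Umod was −0.01, −0.29, −0.21 and 0.30 log2 units at 12, 24, 48 and 96 h, each with an SE of 0.28, and leaving out the 3 libraries of low similarity turned the 24 h value to 0.08. Slc12a1, whose product is the target of the drug, changed by −0.28, 0.11, −0.14 and 0.88 (SE 0.56 each). At 96 h the 8 furosemide libraries of Slc12a1 ran from 84.29 to 425.7 CPM and the 8 control libraries from 48.91 to 210.2 CPM. Cldn10, Cldn16, Cldn19 and Ptger3 were also higher on furosemide at 96 h, by 1.28 (SE 0.59), 1.05 (SE 0.60), 1.02 (SE 0.37) and 0.80 (SE 0.40), each with an adjusted p of 0.778 or more in edgeR. Of these, Cldn19 had the smallest unadjusted p (0.0085): its furosemide values were 19.46, 16.25, 11.18 and 17.76 CPM in males and 12.98, 12.25, 12.94 and 8.986 CPM in females, against 8.652, 11.5, 6.203 and 4.964 CPM and 5.356, 5.617, 7.013 and 5.737 CPM in the controls. Within females the diets did not overlap, and in males only the highest control exceeded the lowest furosemide value. How large a share of all genes was separated in this way was not computed. Cldn19 was called when the 16 libraries of 96 h were fitted alone (0.99, adjusted p = 0.0136 in edgeR). Of the same 21 other thick ascending limb markers, 0 were called at 96 h and 13 had a positive sign, with a median of 0.26 against 0.01 over all genes. The 9 markers of late DCT, connecting tubule and principal cells all had a negative sign at 96 h, with a median of −0.89 and 0 called (summed level 2535 to 10180 CPM on furosemide and 2649 to 6727 CPM on control). The 6 intercalated cell markers also had a negative sign (median −1.28, 0 called, 4.164 to 24.69 against 3.406 to 90.78 CPM), and the part of either in these values was not tested.

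At 12 h Cldn10 stood at −1.75 (SE 0.61, unadjusted p = 0.00538, adjusted p = 0.389 in edgeR) and Nos1 at −0.69 (SE 0.28, unadjusted p = 0.0154, adjusted p = 0.441). The Cldn10 value came from males (−3.44, SE 0.91) and not females (−0.07, SE 0.84), and a difference of 3.37 between the sexes missed the threshold (SE 1.21, adjusted p = 0.576 in edgeR). Its male controls held 49.56, 0.2908, 9.82 and 1.635 CPM, so 1 library set their mean. Markers of other cells also had negative signs in males at 12 h, with 0 called. For podocytes it was 5 of 5 (median −2.38, all with an unadjusted p under 0.05), and the summed level was 23.29 to 258.8 CPM on furosemide and 40.75 to 2858 CPM on control. For intercalated cells it was 6 of 6 (median −1.75, 3 under 0.05, 4.373 to 55.95 against 6.205 to 141.7 CPM). For late DCT, connecting tubule and principal cells it was 8 of 9 (median −1.24, 4 under 0.05, 3022 to 7874 against 3979 to 6426 CPM). No gene of these lists was at 0 in all these libraries. Their part in the Cldn10 and Nos1 values was not tested. At 12 h Nos1 was 4.121, 4.226, 3.162 and 5.221 CPM in furosemide males and 7.561, 5.526, 11.24 and 9.168 CPM in control males. These male values did not overlap, but the share of all genes without overlap was not computed. In furosemide females it was 3.231, 4.03, 17.66 and 4.955 CPM against 6.804, 9.834, 12.59 and 9.664 CPM, where replicate 3 of the furosemide group was the highest of all. Kcnj1 changed by 0.37, 0.36, 0.43 and −0.20 log2 units at the 4 times (SE 0.21 each). The F test across times called none of the 8 genes (0.012% of genes called), with the smallest unadjusted p at 0.00339 for Cldn10 (adjusted p = 0.477 in edgeR).

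**Figure D5:**
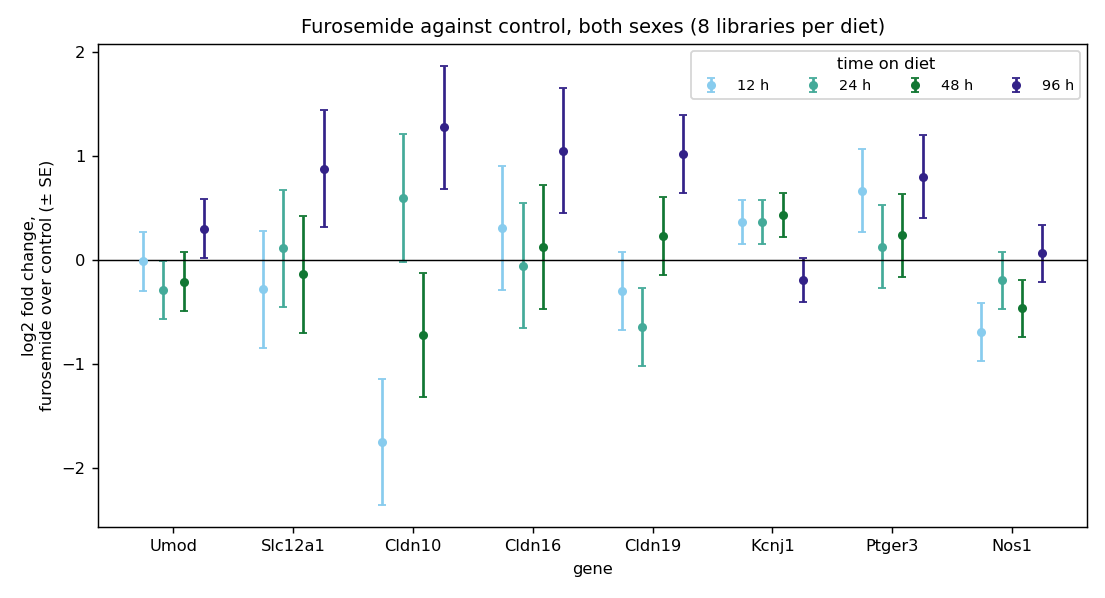
Log2 fold changes of furosemide over control with standard errors for the 8 genes at 12, 24, 48 and 96 h, both sexes together (8 libraries per diet). Umod lies between −0.29 and 0.30, Cldn10 moves from −1.75 at 12 h to 1.28 at 96 h, and no value passed the threshold in this fit of all libraries.

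The ratio of Umod to Slc12a1 was not shown to change with the diet. The mean log2 ratio was 5.07 ± 1.61 on furosemide and 5.16 ± 1.83 on control at 12 h, 6.01 ± 1.29 and 6.42 ± 1.16 at 24 h, 5.28 ± 0.92 and 5.67 ± 1.46 at 48 h, and 4.67 ± 1.22 and 5.20 ± 1.21 at 96 h (SD, n = 8 each, exact permutation within sex over 4900 arrangements, two-sided). The exact p-values were 0.892, 0.524, 0.555 and 0.375 (adjusted p = 0.74 or more), and the smallest p this design allows is 0.000408. The differences, −0.0982, −0.41, −0.39 and −0.535, were each smaller than the within-group SD.

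Between the 96 h controls and the earlier controls, 12.3% of genes were called, and Kcnj1 was the 1 member among them, higher at 96 h by 0.55 log2 units (SE 0.17, edgeR, adjusted p = 0.0195). Its 8 libraries of 96 h ran from 512.5 to 1497 CPM (median 878.3) and its 24 earlier controls from 270 to 851.5 CPM (median 637). Of the 9 markers of late DCT, connecting tubule and principal cells, 4 were called higher at 96 h and 0 lower (median 0.61), with a summed level of 2649 to 6727 CPM against 1027 to 18740 CPM. Of the 12 early DCT markers, 4 were called lower and 0 higher (11 with a negative sign, median −0.34), with 11700 to 22190 CPM against 11160 to 66720 CPM. No gene of either list was at 0 in all libraries. Their part in the Kcnj1 call was not tested. The call was lost with DESeq2 size factors (0.40, adjusted p = 0.0614 in edgeR) and without male control 96 h replicate 1 (0.50, adjusted p = 0.0634), female control 96 h replicate 2 (0.49, adjusted p = 0.0795) or female control 96 h replicate 4 (0.44, adjusted p = 0.108). Umod stood at −0.30 and Cldn19 at −0.72, neither called by edgeR, and Cldn19 was called by DESeq2 (−0.84, adjusted p = 0.0231). The libraries of 96 h also held less Lars2 RNA, with a median of 10600 CPM where the others had 36130, and a smaller mitochondrial share (median 10.8% against 17.8%), so time and library set cannot be told apart.

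Reads of overlapping genes could not be separated in these libraries without strand. An antisense gene model, Gm44588, shares 539 bases of exon with Umod and was listed at 0 to 139.9 CPM with a median of 2.39. Gm12927 shares 90 bases with Cldn19 (median 2.03 CPM) and Gm26995 shares 268 bases with Nos1 (median 0.66 CPM).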

How the data were processed

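RNA was measured in 64 libraries of mouse early DCT tubules, microdissected between 9 and 11 am and made into SMART-Seq HT and Nextera XT libraries without strand or molecular identifiers, per the labels' protocols. The authors deposited 1 table of estimated counts per gene (55% of values are whole numbers). Salmon 0.14.10 is named in the submitters' processing notes, and the annotation release is not given in the sources used here. Gene positions and lengths come from GENCODE M21, to which 54097 IDs matched and 234 did not, and promoters from RefSeq (GRCm38.p6).

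The estimated counts were rounded to whole numbers. Genes were kept by filterByExpr (41507 genes), scaled by TMM and fitted over all 64 libraries with edgeR 4.0.16 (quasi-likelihood test, Benjamini-Hochberg adjusted p under 0.05), with R 4.3.3. The SE of a fold change was computed as its size divided by the root of F. CPM values are TMM-scaled, and correlations use log2 CPM with a prior count of 2, less the group mean. Permutation p-values come from 100000 shuffles within groups (10000 in the alternatives) and are adjusted over 44 pairs. Scripts were tested on simulated data.

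Alternatives were DESeq2 1.42.0, its size factors, no TMM, a prior count of 0.5, no filter on low counts, a replicate block, the libraries of 1 time, the set without the 3 libraries of low similarity, and each library left out in turn. The genes and lists were chosen with earlier results of these data known. Named throughout are the 8 genes, the 5 genes most like Umod and like Slc12a1, and at most 3 genes of a list in a comparison. Libraries of 1 group differed by more than sampling noise (chi-square per degree of freedom of 14.64 or more). The labels do not say that a replicate number marks a shared mouse or day. Of 32 same-numbered pairs 10 had a correlation over 0.1, and females at 24 h alone had all 4 pairs over it (0.182 to 0.584). Some genes of the lists are not reported here by name.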

Additional observations from a re-analysis of the deposited data

Results flagged for a closer look

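In 128 groups of 4 libraries (8 genes in 16 groups), 3 held a library that stood apart from the other 3 by Dixon's criterion at the 95% level, a criterion that chance meets in about 1 in 20 groups. Umod was 8915 CPM in male control 24 h replicate 2, with the other 3 libraries at 4588 to 5025 CPM. Cldn19 was 8.986 CPM in female furosemide 96 h replicate 4, below the 12.25 to 12.98 CPM of the others. Kcnj1 was 491.4 CPM in male control 12 h replicate 3, below 696.4 to 710.6 CPM.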

How the results depend on the processing

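The calls of Cldn16 and Cldn19 in the slope on Slc12a1, the missed call of Umod there and the Umod sex difference over all groups kept their side of the threshold in each alternative run. Furosemide effects on the 8 genes were not called in the other alternatives, except for Ptger3 without the 3 libraries of low similarity (1.18 at 48 h, 0.633 over all times) and without female control 48 h replicate 4 (0.691 over all times), and for Cldn19 at 96 h in the 16 libraries of that time (0.989). The correlations of Umod with Kcnj1 and Slc12a3 missed the threshold without TMM scaling. On values not centred on groups Umod missed it with Kcnj1 (r = 0.258) and passed with Cldn19 (r = 0.406). The replicate numbers were not shown to pair the libraries over the series, though in females at 24 h all 4 same-numbered pairs correlated over 0.1 (1 of 4 best with its own number). Over the series 3 libraries correlated best with their own number. The replicate block gave 0, 3, 1 and 31 genes called for furosemide at 12, 24, 48 and 96 h and 20 for the slope on Slc12a1. Counts of called genes moved with the tool and with single libraries, and the cause was not tested. The edgeR fits without 1 library kept the dispersion trend of all libraries, a choice made after seeing the data. Depth limits Cldn10 and Cldn16, at 4 and 2 counts in their lowest library. With DESeq2, the genes called numbered 96 (furosemide at 12 h), 95 (furosemide at 24 h), 120 (furosemide at 48 h), 174 (furosemide at 96 h), 493 (furosemide over all times), 2268 (slope on Slc12a1). With DESeq2, the sign turned for Ptger3, 96 h controls (−0.0568). Without the 3 libraries of low similarity, the genes called numbered 3 (furosemide at 12 h), 930 (furosemide at 48 h), 134 (furosemide at 96 h), 2518 (furosemide over all times), 9678 (96 h controls). Without the 3 libraries of low similarity, the sign turned for Umod, furosemide at 24 h (0.0805), Cldn16, furosemide at 24 h (0.814), Cldn19, furosemide at 24 h (0.423), Cldn16, furosemide at 48 h (−0.0084), Umod, furosemide over all times (0.0442), Slc12a1, sex difference in controls (−0.0704), Cldn16, sex difference in controls (−0.151), Ptger3, sex difference in controls (−0.0839), Cldn10, 96 h controls (0.00818), Ptger3, sex difference over all groups (−0.0142), Nos1, slope on Slc12a1 (0.0215), r of Umod and Nos1 (0.0604), r of Slc12a1 and Nos1 (0.0179). With DESeq2 size factors in edgeR, the genes called numbered 9 (furosemide at 24 h), 17 (slope on Slc12a1). With DESeq2 size factors in edgeR, the sign turned for Ptger3, 96 h controls (−0.0569). With only the 16 libraries of that time, the genes called numbered 0 (furosemide at 24 h), 0 (furosemide at 48 h), 157 (furosemide at 96 h). With only the 16 libraries of that time, the sign turned for Cldn16, furosemide at 24 h (0.027). With the replicate block, the sign turned for Cldn16, furosemide at 24 h (0.054), Slc12a1, sex difference over all groups (−0.0209). In the libraries of 96 h alone, the sign turned for r of Umod and Slc12a1 (−0.196), r of Umod and Cldn10 (−0.755), r of Umod and Cldn16 (−0.4000), r of Umod and Cldn19 (−0.0129), r of Slc12a1 and Cldn10 (−0.0763), r of Slc12a1 and Kcnj1 (−0.139), r of Slc12a1 and Nos1 (0.0324), r of Slc12a1 and Slc12a3 (−0.289), r of Slc12a1 and Pvalb (−0.608). On values not centred on groups, the sign turned for r of Umod and Cldn10 (−0.0949). In the libraries of 12 h alone, the sign turned for r of Umod and Nos1 (0.471), r of Slc12a1 and Nos1 (0.0957), r of Umod and Slc12a3 (−0.0023). On CPM without TMM, the sign turned for r of Slc12a1 and Kcnj1 (−0.0132), r of Slc12a1 and Slc12a3 (−0.0204). In the libraries of 24 h alone, the sign turned for r of Slc12a1 and Kcnj1 (−0.0421). With each library left out in turn, the genes called ranged from 0 to 1 (furosemide at 12 h), 0 to 9 (furosemide at 24 h), 0 to 6 (furosemide at 48 h), 16 to 87 (furosemide at 96 h), 154 to 1985 (furosemide over all times), 3649 to 8339 (96 h controls), 19 to 2306 (slope on Slc12a1). Values that turned sign in some of these fits ranged from −0.16 to 0.122 (Umod, furosemide at 12 h), −0.48 to 0.36 (Slc12a1, furosemide at 12 h), −0.466 to 0.0663 (Umod, furosemide at 24 h), −0.124 to 0.465 (Slc12a1, furosemide at 24 h), −0.313 to 0.803 (Cldn16, furosemide at 24 h), −0.823 to 0.414 (Cldn19, furosemide at 24 h), −0.014 to 0.298 (Ptger3, furosemide at 24 h), −0.646 to 0.189 (Slc12a1, furosemide at 48 h), −0.362 to 0.319 (Cldn16, furosemide at 48 h). Others ran from −0.0511 to 1.17 (Ptger3, furosemide at 48 h), −0.0600 to 0.139 (Nos1, furosemide at 96 h), −0.0971 to 0.036 (Umod, furosemide over all times), −0.278 to 0.0951 (Cldn10, furosemide over all times), −0.111 to 0.388 (Slc12a1, sex difference in controls), −0.234 to 0.43 (Cldn16, sex difference in controls), −0.623 to 0.0612 (Cldn19, sex difference in controls), −0.00654 to 0.567 (Ptger3, sex difference in controls), −0.0523 to 0.127 (Nos1, sex difference in controls). The rest ran from −0.267 to 0.294 (Cldn10, 96 h controls), −2.5e-05 to 0.385 (Ptger3, 96 h controls), −0.067 to 0.221 (Slc12a1, sex difference over all groups), −0.262 to 0.0702 (Cldn16, sex difference over all groups), −0.0762 to 0.261 (Ptger3, sex difference over all groups), −0.0474 to 0.0289 (Nos1, slope on Slc12a1), −0.0147 to 0.182 (r of Umod and Cldn10), −0.339 to 0.068 (r of Umod and Nos1), −0.198 to 0.0289 (r of Slc12a1 and Nos1). Last were −0.495 to 0.302 (Umod to Slc12a1 log ratio by diet at 12 h), −0.653 to 0.0668 (Umod to Slc12a1 log ratio by diet at 48 h).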
